A study of Mus musculus with 8 samples.

Results

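Mttp, Lpl, Lipc, Lipg, Lcat, Gpihbp1 and Angptl4 encode the proteins that load triglyceride onto lipoproteins in the liver, hydrolyse the lipid of circulating particles, esterify plasma cholesterol, hold lipoprotein lipase on capillaries and inhibit it. They were chosen by gene name on the array, with earlier results of these data known. All 7 were measured and tested, among 14874 genes tested and 24029 named genes on the array. Liver RNA came from 12-week-old bl6 mice on chow, taken on day 6 after transduction with pblockITcontrol (4 arrays, control) or pblockITshRaly (4 arrays, shRaly), which carries a short hairpin against the RNA-binding protein gene Raly. The virus amount given for both is 2e+09, with no unit. What the control vector encodes, and which liver cells the virus reached, are not given in the sources used here. The titles number the samples without saying whether separate mice were used. The p-values may therefore rest on a spread that is technical in part. The comparison asks how transcripts of lipoprotein assembly and lipolysis stand in livers given the hairpin against Raly.

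Hepatocytes build very low density lipoprotein in the endoplasmic reticulum, where microsomal triglyceride transfer protein, the product of Mttp, moves triglyceride onto the nascent particle. In the circulation, lipoprotein lipase (Lpl) hydrolyses triglyceride on the capillary wall, where the anchor protein Gpihbp1 holds it, and Angptl4 inactivates it. Hepatic lipase (Lipc) and endothelial lipase (Lipg) act on remnant and high density particles, and lecithin cholesterol acyltransferase (Lcat), secreted by the liver, forms the cholesteryl esters that fill high density particles. Adult hepatocytes make little Lpl of their own.

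The genes were read by 8 probes of 60 bases, 1 spot each, 2 of them for Lpl. The Lpl values in the test over all genes and in the figures come from the brighter of these 2, whose sequence is not shown. The Lipg and Angptl4 sequences are not shown either. The 5 probes below fix the stretch of transcript to which the values of Mttp, Lipc, Lcat, Gpihbp1 and the second Lpl probe refer. They are written 5′ to 3′ as the files give them, in lower case throughout.
Mttp: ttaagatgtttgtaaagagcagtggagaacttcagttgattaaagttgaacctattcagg
Lipc: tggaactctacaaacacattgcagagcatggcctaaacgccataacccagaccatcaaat
Lpl, second probe: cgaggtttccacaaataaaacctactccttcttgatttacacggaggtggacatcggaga
Lcat: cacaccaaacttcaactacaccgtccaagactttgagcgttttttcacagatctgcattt
Gpihbp1: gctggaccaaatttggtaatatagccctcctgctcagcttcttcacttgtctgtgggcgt

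On mouse build mm9, as the files give it, the Mttp probe (NM_001163457) lies on chromosome 3, 137753868 to 137753927, minus strand, and is annotated to 2 RefSeq transcripts of the gene. The Lipc probe (NM_008280) lies on chromosome 9, minus strand, and its 60 bases span 3677 bases of genome, 70660699 to 70664375, so it crosses a splice junction. The Lpl probes (NM_008509) lie on chromosome 8, plus strand, at 71430267 to 71430326 (first probe, the brighter one) and at 71425050 to 71425109 (second probe). The Lcat probe (NM_008490) lies on chromosome 8, 108463857 to 108463916, minus strand, and the Gpihbp1 probe (NM_026730) on chromosome 15, 75428484 to 75428543, plus strand. The Angptl4 probe (NM_020581) lies on chromosome 17, 33911880 to 33911939, minus strand, and the Lipg probe (NM_010720) on chromosome 18, 75099629 to 75099688, minus strand. No exon or UTR annotation of mm9 was used here.

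Between 45.9% (shRaly 2) and 51.1% of the non-control spots were well above background, the scanner software's mark for a spot clearly brighter than its surroundings. All 9 hepatocyte markers found on the array were well above background on all 8 arrays, while 3 of 6 muscle markers and 2 of 6 adipocyte markers were so on none. Of the other muscle markers, Acta1 was so on 2 control and 2 shRaly arrays, and Mb and Myl1 on 1 shRaly array each, with signals up to 60.2 intensity units. The summed muscle signal ranged from 71.8% to 127% of the control mean on control arrays and from 79.7% to 314% on shRaly arrays. The adipocyte markers Lipe and Cfd were well above background on all 8 arrays. The part of these markers in the Lpl values was not tested. Raly, the targeted gene, stood at 100.4%, 84.3%, 105% and 112% of the control mean on control 1 to 4 and at 51.8%, 80.9%, 58.3% and 62.7% on shRaly 1 to 4. The groups did not overlap, though shRaly 2 came close to control 2. The shRaly level was 62.5% of control (log2 fold change -0.68, SE 0.15, n = 4 and 4; limma adjusted p = 0.0749), which did not pass the threshold of 0.05; it was 0.03 without shRaly 2, 0.106 to 0.193 without any other array, 0.183 with slide column as a block, 0.0111 with normexp and 0.0383 with an intensity trend. All arrays lay on 1 slide, controls in one row and shRaly arrays in the other, with arrays of the same number in the same slide column, so an effect of the row cannot be told apart from one of the hairpin. In bulk tissue, fewer cells of a type and less RNA per cell cannot be told apart either.

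None of the 7 genes differed between the groups past the threshold, a limma adjusted p below 0.05 over all genes tested. The count was 0 of 7, against 1.22% of all genes tested (0.914% lower and 0.309% higher in shRaly livers). At an unadjusted p below 0.05 the count was 2 of 7, Angptl4 and Lipg, both higher in shRaly livers, where 16.1% of all genes reached that level (9.71% lower and 6.41% higher). For 0 of 7 genes were the groups free of overlap, which was so for 10.4% of all genes (6.43% lower and 3.92% higher). The log2 fold changes ran from -0.25 (Lcat) to 0.51 (Lipg), with a median of 0.07 beside -0.02 over all genes tested. Values below are percentages of the control mean, set to 100 for each probe on the log2 scale. The level of one probe cannot be read against that of another.

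**Figure D1:**
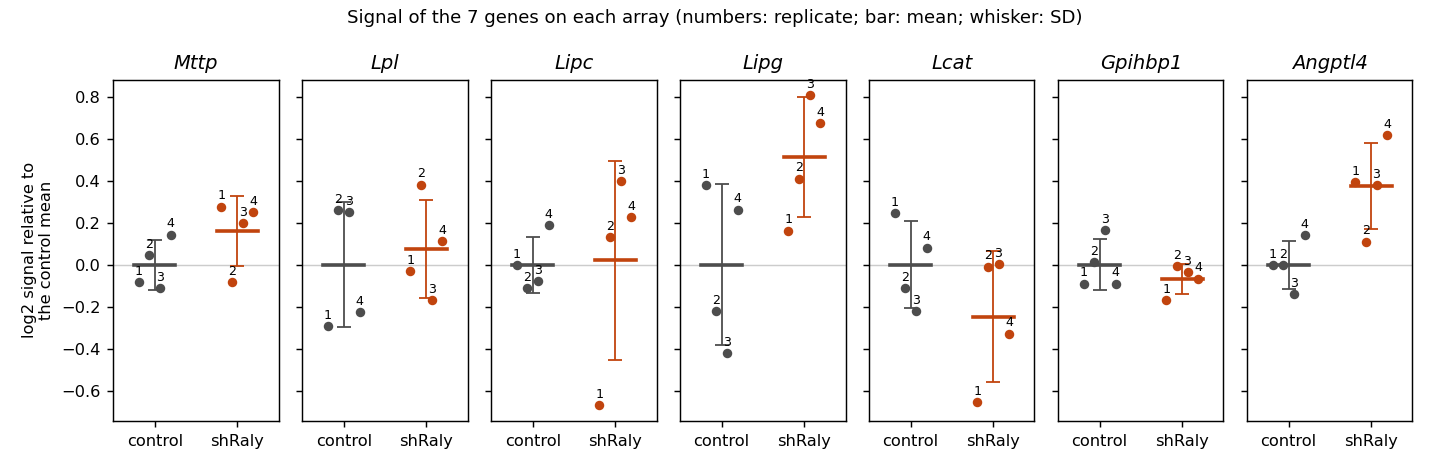
Log2 signal of each of the 7 genes relative to its control mean (vertical axis) on the 4 control and 4 shRaly arrays. Points are arrays, labelled with the replicate number, the bar is the group mean and the whisker the SD (n = 4). The groups overlap in every panel. Angptl4 has the least overlap, with shRaly 2 below control 4, and shRaly 1 is the lowest point for Lipc and Lcat.

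Mttp, the triglyceride loader of very low density lipoprotein, stood at 94.5%, 103%, 92.7% and 110.5% on control 1 to 4 and at 121%, 94.5%, 115% and 119% on shRaly 1 to 4. The shRaly 1, 3 and 4 arrays lay above all controls, while shRaly 2 lay among them. The group level was 112% of control (95% interval 94.1% to 133%), a log2 fold change of 0.16 (SE 0.11, limma adjusted p = 0.506). The exact two-sided permutation test gave p = 0.143, where 0.0286 is the smallest that 4 against 4 arrays allow. Leaving out single arrays, the log2 fold change ran from 0.12 (without shRaly 1, adjusted p = 0.602) to 0.24 (without shRaly 2, adjusted p = 0.285).

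Lipc, the hepatic lipase, had an almost equal mean in both groups and a wide spread in shRaly livers. Its control values were 99.99%, 92.6%, 94.8% and 114%, and its shRaly values 62.9%, 109.6%, 132% and 117%. The SD on the log2 scale was 0.13 among controls and 0.47 among shRaly arrays, because shRaly 1 was the lowest of all 8 arrays and the other shRaly arrays lay at 109.6% or more, among or above the upper controls. The log2 fold change was 0.02 (SE 0.21, adjusted p = 0.972), with a 95% interval of 72.6% to 142% of control. Its sign turned with normexp background correction (-0.03) and with median scaling (-0.0048), and without shRaly 1 it was 0.25 (adjusted p = 0.263), so no direction can be given for Lipc.

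Lpl, the lipase of capillary beds, was read by both of its probes on every array. The brighter probe stood at 81.8%, 119.9%, 119% and 85.6% on control 1 to 4 and at 98.0%, 130.3%, 89.1% and 108% on shRaly 1 to 4. The control arrays split into a high and a low pair, and the shRaly values fell across the same range. The log2 fold change was 0.07 (SE 0.17, adjusted p = 0.872; 95% interval 80.5% to 138% of control), and it turned below 0 without control 1 (-0.02) or without shRaly 2 (-0.03). The second probe stood at 74.8%, 105%, 125% and 102% on the controls and at 84.6%, 116%, 101% and 101% on the shRaly arrays. Its log2 fold change was -0.0016 (SE 0.16, limma adjusted p over probes = 0.998). Both probes thus placed the group means within their spread. Across the 8 arrays the probes had a Pearson r of 0.73 (exact permutation p = 0.0373) and a Spearman rho of 0.76 (exact permutation p = 0.0368), and without the 2 arrays farthest from the median r was 0.50, so part of that relation rests on those arrays. Macrophages are another source of Lpl. The summed signal of 10 Kupffer cell and macrophage markers, most of it from Cd5l and Csf1r, ranged from 75.1% to 111% of the control mean on control arrays. On shRaly arrays it ranged from 87.9% to 109%. Of the 10 markers, 1, Timd4, was well above background on none. The part of these markers in the Lpl values was not tested.

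Lipg, the endothelial lipase, was faint. Its processed signal was 20.4, 11.8, 11.3 and 17.3 intensity units on control 1 to 4 and 14.2, 16.9, 27.9 and 23.8 on shRaly 1 to 4, and the spot was well above background on 2 of 4 control and 3 of 4 shRaly arrays. The scanner software can set a surrogate value where a spot is not above background. As percentages of the control mean the controls were at 130.1%, 85.8%, 74.7% and 120.0% and the shRaly arrays at 112%, 133%, 175% and 159%. All 4 shRaly arrays lay above the control mean, and shRaly 1 lay below control 1 and control 4. The log2 fold change was 0.51 (SE 0.21, unadjusted p = 0.0363, adjusted p = 0.273 by limma), or 143% of control with a 95% interval of 103% to 198%. With normexp, which adds 50 to every signal, it was 0.26 (adjusted p = 0.346).

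Lcat, the plasma cholesterol-esterifying enzyme, had the lowest fold change of the 7. It stood at 119%, 92.7%, 85.9% and 106% on the controls and at 63.6%, 99.4%, 100.3% and 79.7% on the shRaly arrays. The shRaly 1 and 4 arrays were below all controls and the other two lay within the control range. The group level was 84.3% of control (95% interval 64.7% to 110.0%), a log2 fold change of -0.25 (SE 0.17, adjusted p = 0.513). Without shRaly 1, the array that was also lowest for Lipc, the log2 fold change was -0.11 (adjusted p = 0.708).

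Gpihbp1, the capillary anchor of lipoprotein lipase, varied least between shRaly arrays. Its control values were 94.0%, 101%, 112% and 94.0%, and its shRaly values 89.0%, 99.7%, 97.7% and 95.6%. All 4 shRaly values were under the control mean, and 3 of them lay within the control range. The log2 fold change was -0.07 (SE 0.09, adjusted p = 0.761), and the 95% interval of 82.7% to 110.1% of control was the narrowest of the 7. Gpihbp1 protein is made by endothelial cells. The summed signal of 10 liver endothelial markers, all well above background on all 8 arrays, came mostly from Clec4g and Stab2. It ranged from 94.95% to 105% of the control mean on control arrays and from 79.9% to 90.3% on shRaly arrays. Of these markers 0 passed the threshold by limma, and 4 were lower at an unadjusted p below 0.05, beside 9.71% of all genes. Their log2 fold changes lay below 0 for 7 of 10 (70%), beside 53.8% of all genes tested, and above 0 for 3, with a median of -0.24. The part of these markers in the Gpihbp1 and Lipg values was not tested.

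Angptl4, the secreted inhibitor of lipoprotein lipase and a known target of the PPAR nuclear receptors, had the smallest p of the 7. It stood at 99.8%, 99.9%, 90.9% and 110.3% on control 1 to 4 and at 131%, 108%, 130.04% and 153% on shRaly 1 to 4. All 4 shRaly arrays were above the control mean, and 3 of them above every control; shRaly 2 lay just under control 4. The group level was 129.7% of control (95% interval 107% to 157%), a log2 fold change of 0.37 (SE 0.12, unadjusted p = 0.0123, adjusted p = 0.176 by limma). The exact two-sided permutation p was 0.0571. Without shRaly 2, the array with the fewest spots well above background and with Raly at 80.9% of the control mean, the log2 fold change was 0.46 and the adjusted p 0.087; without shRaly 4 they were 0.29 and 0.372, the other end of the range over single arrays left out. Adipose tissue is another source of Angptl4 and Lpl, and of 6 adipocyte markers Plin1 and Lep were well above background on no array and Adipoq on 1 control and 1 shRaly array, while Lipe and Cfd were so on all 8 arrays and Retn on 3 of 4 in each group. The summed signal of the 6, most of it from Cfd, ranged from 53.5% to 201% on control arrays and from 27.1% to 111% on shRaly arrays.

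**Figure D2:**
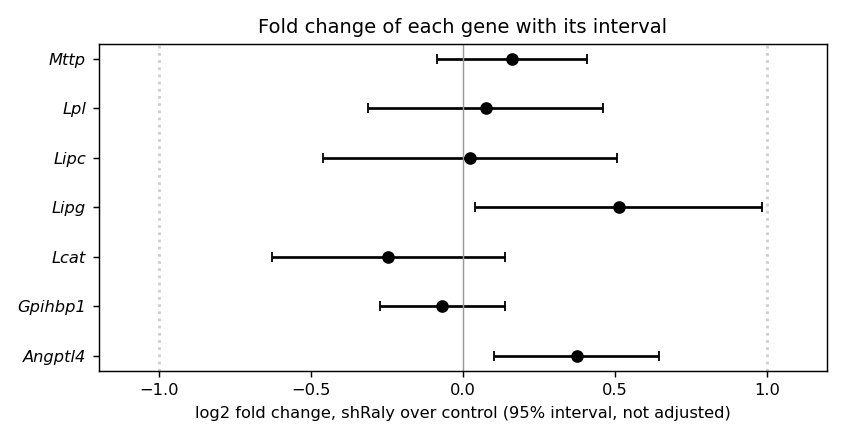
Log2 fold change of shRaly over control for each gene (points) with its 95% interval (bars), not adjusted for the number of genes. Dotted lines mark log2 changes of -1 and 1. The intervals of Angptl4 and Lipg lie above 0, those of the other 5 genes include 0, and none reaches a log2 change of -1 or 1.

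The intervals give the range that the spread within groups allows, and that spread may be technical in part. They cannot separate the hairpin from the slide row. The lowest lower bound was that of Lcat, 64.7% of control, and the highest upper bound that of Lipg, 198%, so in this fit the 95% interval of none of the 7 genes reached a change by a factor of 2 in either direction. For Lipg, well above background on only 5 of 8 arrays, that limit did not hold: its interval passed 200% in 10 of 17 alternatives, with an upper bound of up to 218%. For the other 6 genes it held in each of the 18 alternatives. These intervals are for single genes and are not adjusted. A p above the threshold does not show that the levels were equal.

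The partners of these genes were taken as 5 lists, also chosen with earlier results of these data known. List shares set beside those of all genes are therefore a description only. Of 93 genes 92 were tested, and 2 passed the threshold lower and 0 higher, beside 0.914% and 0.309% of all genes tested. The groups were free of overlap for 11 of the 92 in the lower direction and 2 in the higher, beside 6.43% and 3.92% of all genes. At an unadjusted p below 0.05, 18 of the 92 were lower and 4 higher, where the shares of all genes tested were the 9.71% and 6.41% given above. In the very low density lipoprotein assembly and secretion list 0 of 20 genes passed the threshold by limma (3 lower and 1 higher at an unadjusted p below 0.05; median log2 fold change -0.04). P4hb, protein disulfide isomerase and the subunit that pairs with the Mttp protein, stood at 113%, 98.9%, 95.4% and 94.0% on the controls and at 70.4%, 79.6%, 88.3% and 80.0% on the shRaly arrays. The groups did not overlap, as for 2 of the 20 genes of this list, from which P4hb was named for its small p. Its log2 fold change was -0.33 (SE 0.10, adjusted p = 0.161). Vmp1, an endoplasmic reticulum membrane protein needed for lipoprotein release, had 0.44 (SE 0.15, adjusted p = 0.212). The Mttp value was above the control level and the P4hb value below it, and neither difference passed the threshold.

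In the list of lipase maturation factors, cofactors, tethers and other inhibitors, 0 of 20 tested genes passed by limma, with a median of -0.11. At an unadjusted p below 0.05, 5 were lower and 0 higher, beside 9.71% and 6.41% of all genes. Of the 20, 16 (80%) lay below 0, beside 53.8% of all genes tested. Lmf1, the chaperone that these lipases need to fold, stood at 94.3%, 106%, 101% and 98.7% on the controls and at 80.4%, 74.1%, 82.2% and 77.9% on the shRaly arrays. The groups did not overlap, as for 4 of the 20 tested genes of this list, beside 6.43% of all genes in the lower direction. Its log2 fold change was -0.35 (SE 0.08), with an adjusted p of 0.0846 by limma, which ran from 0.0382 to 0.384 over the alternatives. Angptl6, a liver-secreted relative of Angptl4, had -0.53 (SE 0.12, adjusted p = 0.087), also without overlap. Its adjusted p was 0.0318 with normexp and 0.046 with an intensity trend and robust fitting, and up to 0.227 over the alternatives. Angptl8, a feeding-induced liver protein that modulates lipase inhibition, was chosen after its values were seen. It stood at 162%, 128%, 79.9% and 60.2% on the controls and at 69.5%, 60.5%, 42.6% and 25.6% on the shRaly arrays. Its log2 fold change of -1.11 (SE 0.38, adjusted p = 0.202) was the lowest in these lists, but control 4 lay below shRaly 1 and 2. The spread within each group was wide, and in both groups the values fell from array 1 to array 4, the order of the slide columns. Why they did so was not tested. With slide column as a block the adjusted p of Angptl8 by limma was 0.027, but over all genes arrays of the same number met no rule for pairing.

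In the high density lipoprotein list, where Lcat acts, 0 of 12 genes passed by limma, with a median of -0.29 beside -0.02 over all genes tested. At an unadjusted p below 0.05, 4 were lower and 0 higher, beside 9.71% and 6.41% of all genes. Of the 12, 9 (75%) lay below 0, beside 53.8% of all genes tested. Pon1, a paraoxonase carried on high density particles, had -0.32 (SE 0.11, adjusted p = 0.195) and Scarb1, the receptor that takes up their cholesteryl esters, -0.32 (SE 0.12, adjusted p = 0.231). Of 18 transcription factors known to act on the 7 genes, 2 passed the threshold lower and 0 higher, beside 0.914% and 0.309% of all genes tested. Srebf2, the driver of cholesterol synthesis genes, fell to 62.3% of control (adjusted p = 0.0379 by limma), and Ppara, which drives Angptl4 and fatty acid oxidation genes, to 66.6% (adjusted p = 0.0498). Both calls were lost without any one of the arrays control 1 to 4, shRaly 1, shRaly 3 or shRaly 4, with adjusted p up to 0.125 for Srebf2 and 0.153 for Ppara. The Srebf2 call was also lost with normexp, where its log2 fold change was -0.42 (adjusted p = 0.0838) against -0.68, and with the mean over its probes (-0.47, adjusted p = 0.0553). The Ppara call was lost with quantile normalization (adjusted p = 0.0946) and with the mean over its probes (0.0959). With slide column as a block the adjusted p was 0.115 for Srebf2 and 0.119 for Ppara. Foxo1, a forkhead factor that acts on Mttp, was chosen after its values were seen and had 0.50 (SE 0.12, adjusted p = 0.0949). All 4 shRaly arrays lay above all controls, as for 2 of the 18 factors and 3.92% of all genes.

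Among 22 other PPAR target genes 0 passed by limma, with a median of -0.12 beside -0.02 over all genes tested. At an unadjusted p below 0.05, 4 were lower and 2 higher, beside 9.71% and 6.41% of all genes. Of the 22, 17 (77.3%) lay below 0, beside 53.8% of all genes tested. Plin2, the main lipid droplet coat protein of hepatocytes, had -0.46 (SE 0.14, adjusted p = 0.154). The 2 higher genes, named after their values were seen, were Plin4, a lipid droplet protein, at 0.80 (SE 0.29, adjusted p = 0.227), and Acot1, an acyl-CoA thioesterase with close paralogs, at 0.56 (SE 0.23, adjusted p = 0.273). Angptl4, at 0.37, had the sign of Plin4 and Acot1 and the opposite sign to Plin2 and Ppara, and the differences between them were not tested. The lists were described by counts and medians, and nothing was tested for a list as a whole.

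**Figure D3:**
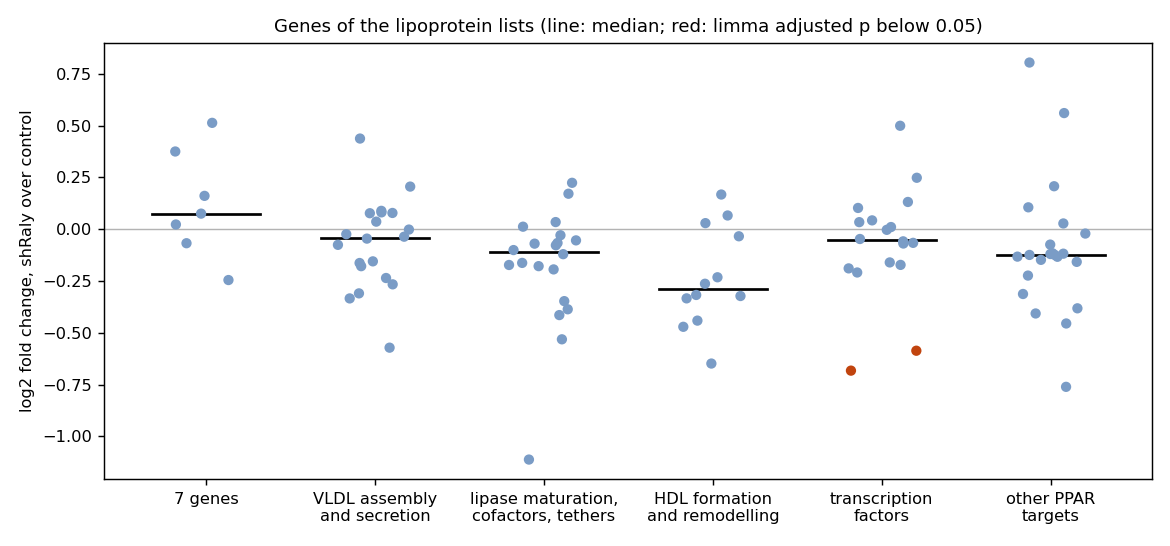
Log2 fold change of shRaly over control (vertical axis) for the 7 genes and for the tested genes of 5 lists of partners, where VLDL is very low density and HDL high density lipoprotein. Points are genes, lines are medians, and red marks a limma adjusted p below 0.05. Red points are Srebf2 and Ppara. The median is 0.07 for the 7 genes and -0.29 for the high density list.

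Across the 8 arrays, Mttp and Angptl4 had the highest Pearson r of the 21 pairs among the 7 genes. It was 0.87 (exact permutation p = 0.00598, adjusted over the pairs 0.126), with a Spearman rho of 0.95 (exact permutation p = 0.00114, adjusted 0.024). The permutations shuffled all 8 arrays without regard to group or slide row, so a difference between groups shared by both genes can add to these values. After the group means were taken out r was 0.86, for which no p-value was computed. Without the 2 arrays farthest from the Mttp median r was 0.82. By Pearson's r 0 of 21 pairs passed after adjustment and 2 had an unadjusted p below 0.05. Each group filled 1 slide row with 4 arrays, too few for a correlation of its own. Both genes were lowest among shRaly arrays on shRaly 2.

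**Figure D4:**
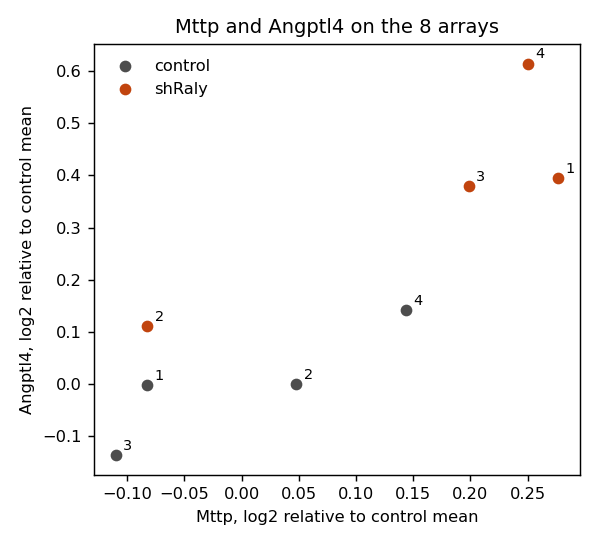
Log2 signal of Mttp (horizontal axis) and Angptl4 (vertical axis), each relative to its control mean, on the 4 control and 4 shRaly arrays. Points are arrays, labelled with the replicate number. The shRaly 1, 3 and 4 arrays are high for both genes and shRaly 2 lies near the controls (r = 0.87 over 8 arrays).

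For each of the 7 genes, the genes of most similar level across the 8 arrays were found among 13307 with a value on every array, by Pearson's r. They are the top of a long ranking over few arrays and are given as a description, with no test. For Mttp they were Cd69 (r = 0.97) and Sgo2a (0.96), and for Angptl4 Naa20 (r = 0.98) and Mbl2 (0.97). For Lipc they were Rpl7l1 and Dld (r = 0.99 each), and for Lcat Cryzl2 and Stk16 (r = 0.99 each). For Lpl they were Pkib (r = 0.97) and Nup107 (0.96), for Lipg Pmpca and Rab7 (r = 0.98 each), and for Gpihbp1 Xylt2 (r = 0.98) and Ndrg1 (0.97). Xylt2, which starts heparan sulfate chains and is on the list of tethers, had a log2 fold change of -0.07. Gpihbp1 had the same at 2 decimals, a likeness that the choice of Xylt2 by its similarity to Gpihbp1 favours. A link between the 2 genes was not tested.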

How the data were processed

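Total RNA of 8 mouse liver samples was read on 1-colour (Cy3) Agilent arrays. The deposited array files give intensity values from Agilent Feature Extraction 11.5.1.1, per the file headers (11.5.1.11 per the submitters' processing notes): mean signal, local background, and a processed signal, corrected by spatial and multiplicative detrending, with surrogate values for spots not above background and no scaling between arrays. The authors' deposited table holds the same processed intensity for 62976 of 62976 spots on every array. No later normalization step by the authors is recorded in the labels or headers.

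For this work, the log2 of the processed signal was used, less the 75th percentile of the array's non-control spots. Spots flagged as outliers (137 to 163 per array) were left out; saturated spots numbered 0. A gene was tested where 4 or more of the 8 arrays had a probe of it well above background, with at least 3 values per group, using its brightest probe. Probes were named through RefSeq accessions (gene table of GRCm38.p6, names only) or the symbols in the files. The groups were compared with limma 3.58.1 in R 4.3.3, with Benjamini-Hochberg adjustment over all genes, as tested on simulated data. Alternatives were normexp with offset 50, other scalings, filters, probe rules, a replicate block and leaving out each array. The number of arrays limits the precision.

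The 7 genes and the lists were chosen with earlier results of these data known. Named list genes are those past the threshold, or else the 2 of smallest p per list; 1 of these is not reported here. Of the marker names, Tf matched no probe. The sequences shown are the arrays' own probes.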

Additional observations from a re-analysis of the deposited data

How the results depend on the processing

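The number of the 7 genes past the threshold was 0 under all 18 alternatives, for the 6 that remained testable when a probe had to be well above background on all arrays (Lipg was not) and for 7 otherwise; the lowest adjusted p was 0.087, for Angptl4 without shRaly 2. Mttp, Angptl4 and Lipg stayed above 0 and Lcat and Gpihbp1 below 0 under every alternative that gave a value. Each was read by 1 unflagged probe. The filters, probe mean, kept flags, replicate block, intensity trend and authors' deposited table therefore could not alter their fold changes. Only normexp, the other scalings and the leave-outs could. Lipc turned with normexp (-0.026) and median scaling (-0.0048), and leaving out single arrays it ran from -0.10 to 0.25; Lpl ran from -0.027 to 0.16. Across all genes 182 passed, against 42 with no filter on dim probes, 46 with a replicate block and 17 (without control 2) to 282 (without shRaly 2) in the leave-outs. Of the list genes 2 passed, against 1 with quantile normalization, 0 with no filter, 0 with the mean over probes, 1 with outlier flags kept, 1 with a replicate block, 4 with an intensity trend and robust fitting, and 0 to 2 in the leave-outs. Causes were not tested, except that no filter raised the number of genes tested to 24029. With the replicate block Angptl8 passed (adjusted p = 0.027) and Srebf2 (0.115) and Ppara (0.119) did not. Same-numbered arrays share a slide column, but the numbers met no rule for pairing: their deviations had correlations between -0.07 and 0.14, and for 1 of the 4 numbers that correlation exceeded those with other numbers. For Lipg, signal near background limits the precision.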
